A study of Mus musculus with 6 samples.

Results

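Accessible chromatin in mouse kidney was read here at the 3′ untranslated region (3′ UTR), the exon sequence past the end of the coding sequence (CDS). ATAC-seq, in which Tn5 transposase inserts adapters into open chromatin, had been run on kidney nuclei from WT mice (3 libraries) and from mice with a tubule-specific Acly knockout (Acly cKO, 3 libraries), all with the treatment label Control and with no age in the labels. By the study's methods the tissue was cortex, and ACLY, the enzyme that makes acetyl-CoA from citrate, was deleted with a Cre driven by the Cdh16 promoter, which is active in tubule epithelium and spares other kidney cells. The labels give batches 1 and 2 for WT and 4 and 5 for Acly cKO, and the effect of batch and that of genotype cannot be told apart. The deposited peak list is a single call over pooled libraries that it does not name, and whether further WT libraries that the study counts and had deposited earlier entered the pool is not known, so no value below has a replicate error, the depth of each library is unknown, and the genotypes were not compared.

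An interval of that list was taken when its highest summit by q lay on an autosome, in the 3′ UTR of the Ensembl canonical transcript of a protein-coding gene, over 3 kb from the transcription start site (TSS) of every protein-coding transcript, and had a fold enrichment of at least 5. Fold enrichment is the linear ratio of the pooled signal at a summit to the caller's local background. The rule gave 969 intervals of 279569 in the list, in 941 host genes. They are called accessible 3′ UTR intervals. They were chosen by fold enrichment and position, so both are given as description and support nothing. Of all 3′ UTR intervals at that distance, 16.8% (969 of 5766) reached the fold enrichment of 5, against 21.7% of all autosomal intervals over 3 kb from a TSS. Of 15984 genes with eligible 3′ UTR sequence, 5.89% held at least 1 such interval (Wilson 95% interval 5.53% to 6.26%, which covers counting error only, as do all intervals below).

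The 3′ UTR is best known from the mRNA, where it carries the polyadenylation signal and the sites of microRNAs and RNA-binding proteins. In the genome the same bases are DNA that can also hold an enhancer, a CTCF site that bounds a chromatin loop, or the promoter of another transcript. ATAC-seq reads the DNA and says nothing about the mRNA.

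The DNA sites that recur in the results are shown first. Each stretch is on GRCm39, lies inside an accessible 3′ UTR interval of the named gene, and is written 5′ to 3′ on the given strand with the matched motif in capitals. For each motif the intervals with the highest fold enrichment that held it are shown. The first pair carries the core used here for CTCF, the zinc-finger protein of insulators and loop anchors, which is CCA, 2 free bases, AG, 2 free bases and GGC.
Ripor1, chr8:106349189-106349218, plus strand: gagctgtcgCCACCAGGGGGCagcagaact
Slc4a3, chr1:75536311-75536340, minus strand: caaaaaccaCCACCAGAGGGCtacacacgg

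The next pair carries TGANTCA, the site of AP-1, the Fos and Jun family that responds to growth factors and stress.
Cx3cl1, chr8:95508677-95508706, plus strand: ccagaagccagTGACTCActccttgattgg
H6pd, chr4:150064352-150064381, plus strand: aggctgggcagTGACTCAccgttattcaga

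The following stretches carry the sites of HNF1 (GTTAAT and ATT with 1 free base between them) and of HNF4 (CAAAGTCCA), which are factors of tubule epithelium.
Tfcp2l1, chr1:118609945-118609974, minus strand: ccactgatgtGTTAATAATTttcagaactc
Cfap20dc, chr14:14038750-14038779, plus strand: tcacagccttGTTAATCATTaagctgcttt
Vps13d, chr4:144699675-144699704, minus strand: cttgccaggaCAAAGTCCAacgatccagaa
Tmem255b, chr8:13512540-13512569, minus strand: aggcgccctcCAAAGTCCAgggatggtttt

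The last pair is GGAATGT, the site of TEAD factors, which act with YAP and TAZ.
Nhlrc2, chr19:56590517-56590546, plus strand: tagacgcttgtGGAATGTgcgtctaggtgt
Lgi2, chr5:52694537-52694566, minus strand: taggccagcctGGAATGTgcccaagatgaa

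Promoter accessibility was checked at marker genes. A fold enrichment of at least 5 within 1 kb of the canonical TSS was found at 28 of 30 proximal tubule markers, 24 of 28 markers of thick ascending limb and distal tubule, 21 of 26 of collecting duct and 16 of 19 of podocytes. It was found at 8 of 18 endothelial markers, 8 of 16 stromal markers, 3 of 19 immune markers and 6 of 29 genes of other organs, with 64.4% over all coding genes. The share passed that of all genes in the tubule and podocyte lists and was below it in the endothelial, stromal and immune lists and in genes of other organs. It was also high, at 34 of 35 and 37 of 38, in the lists of JAK-STAT signalling and of acetyl-CoA and lipid metabolism, which are not particular to kidney. In a pooled tissue sample, fewer cells of a type and a weaker signal per cell cannot be told apart.

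The accessible 3′ UTR intervals had a median fold enrichment of 8.58, with quartiles of 6.29 and 12.9. A fold enrichment of at least 10 was reached by 373 of them (38.5%) and of at least 20 by 97 (10.0%). The intervals nearest the threshold were in Mettl16, Socs7 and Dnajc27 at 5.04, and just outside it lay intervals in Inha, Pln and Gamt at 4.98. Their median width was 1615 bp with a median of 4 summits, and 15.7% had a single summit. The median width was 1403 bp for coding-exon intervals, 1459 bp for intron intervals and 1249 bp for those outside coding genes, all taken at the same distance and fold enrichment.

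**Figure D1:**
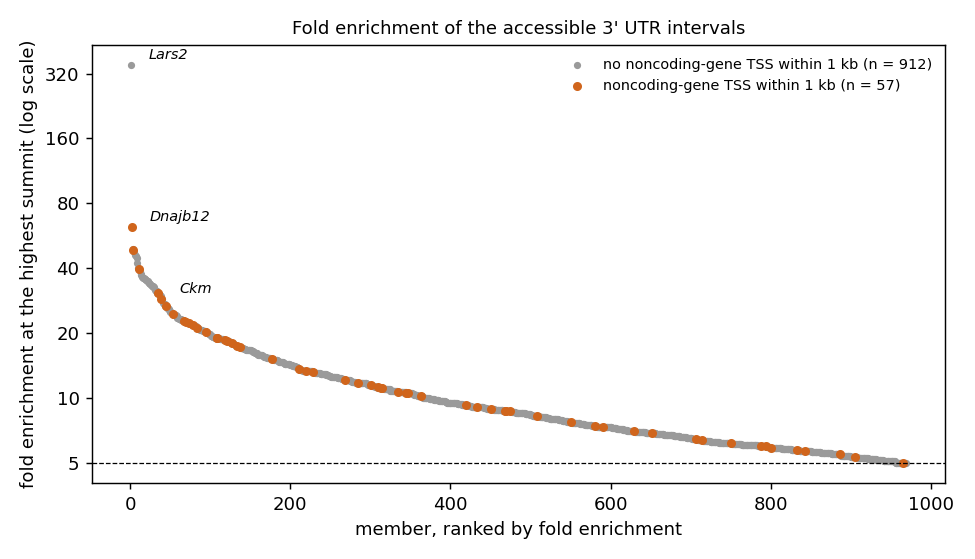
Fold enrichment (log axis) of each of the 969 accessible 3′ UTR intervals, ranked from the highest, with those whose summit lies within 1 kb of a noncoding-gene TSS in orange and the threshold of 5 as a dashed line. Lars2 at 352 stands apart from the rest, which begin with Dnajb12 at 62.5, and orange points recur among the highest values.

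The highest value belonged to Lars2, which encodes the mitochondrial leucyl-tRNA synthetase. Its interval of 915 bp (chr9:123290353-123291267) reached a fold enrichment of 352, and the next interval reached 62.5. The 30 bases around its summit, with the summit base in capitals, read as follows on the plus strand.
Lars2, chr9:123291064-123291093: cgtcgctttttgatcCttcgatgtcggctc

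The 200 bp around the Lars2 summit matched 5 other places in GRCm39 with at least 90% identity over at least 150 bp, the closest at 96.7%. Such further copies were found for 36 of the 969 windows (3.72%, 2.70% to 5.10%). Of these, Or6z5, an olfactory receptor gene, had 50, and the zinc-finger genes Zfp964 and Zfp988 had 44 and 185. Elovl6, a fatty acid elongase named below, had 1. The authors kept uniquely mapped reads, copies that the assembly may lack were not searched, and how sequence copies moved the fold enrichment was not tested, so the value of Lars2 may not be that of its own locus alone. Without these 36 intervals the highest fold enrichment was 62.5, and none of the 16 values recomputed moved outside the interval or range set for it.

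Other hosts among the 15 highest are given singly. Cx3cl1, the membrane-bound chemokine fractalkine, had 49.0 in an interval of 15312 bp that covered its whole 3′ UTR (chr8:95502206-95517517). H6pd, the glucose-phosphate dehydrogenase of the endoplasmic reticulum, had 47.5. Jmjd4, a lysyl hydroxylase, had 46.0, and Dclre1b, a nuclease that acts at telomeres, had 45.8. H13, the signal peptide peptidase, had 44.6, and Znrf1, an E3 ubiquitin ligase, had 42.2. Unc13a, a synaptic vesicle priming protein, had 37.5 at a summit 23 bp past its coding end, and its promoter had 27.0. Extl1 had 40.1, Shf 37.2 and Ccdc92b 36.5. These values are read at the 3′ UTR and do not give the expression of the host genes. The widest interval, of 48818 bp with 136 summits, ran over both ends of the Hjurp 3′ UTR, where the highest summit had 34.1 and no summit was listed within 1 kb of the Hjurp TSS.

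Per base, 3′ UTRs were about as rich in strong intervals as coding exons. Eligible 3′ UTR sequence of 27.0 Mb held 35.8 intervals per Mb with a fold enrichment of at least 5 (Poisson 95% interval 33.6 to 38.2). Coding exons held 35.2 per Mb (32.9 to 37.7), introns 29.4 (28.98 to 29.75) and sequence outside coding genes 18.6 (18.4 to 18.8). The 5′ UTRs at this distance held the highest density, 74.5 per Mb (43.4 to 119), from 17 intervals in 0.228 Mb. The order changed when every interval was counted: coding exons held 285 per Mb, 5′ UTRs 258, 3′ UTRs 213, introns 150 and sequence outside coding genes 75.04. The share of intervals that reached the fold enrichment of 5 was 16.8% in 3′ UTRs, 12.3% in coding exons, 19.5% in introns and 24.8% outside coding genes.

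**Figure D2:**
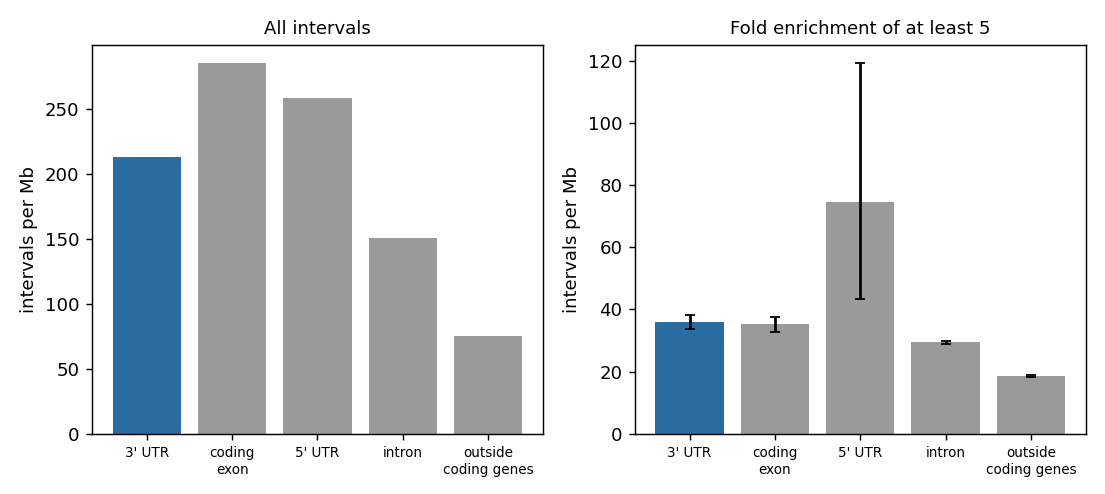
Intervals per Mb of eligible autosomal sequence over 3 kb from a protein-coding TSS, for all intervals (left) and strong intervals of fold enrichment 5 or more (right, with Poisson 95% intervals), by the place of the highest summit. At a fold enrichment of at least 5 the 3′ UTR bar (35.8) and the coding exon bar (35.2) stand side by side with overlapping intervals, above introns (29.4) and sequence outside coding genes (18.6) and below 5′ UTRs (74.5).

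Hosts had long 3′ UTRs. The median eligible 3′ UTR was 2765 bases in hosts and 1112 bases in the other eligible genes. The share of genes that were hosts was 0.769% with under 500 eligible bases, 2.78% with 500 to 1000, 5.27% with 1000 to 2000, 10.9% with 2000 to 4000 and 15.8% with at least 4000. Per Mb the same groups held 33.4, 37.4, 36.0, 39.0 and 29.8 intervals, the lowest density in the longest 3′ UTRs. Of the hosts, 915 had 1 interval, 24 had 2 and 2 had 3. Macir, with a 3′ UTR of 39400 bases, had 3, at fold enrichments of 19.8, 6.22 and 5.63. E130308A19Rik also had 3, at 16.8, 6.22 and 5.83, in a 3′ UTR of 8403 bases.

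Host promoters were mostly accessible. A fold enrichment of at least 5 within 1 kb of the canonical TSS was found in 86.3% of hosts (83.9% to 88.3%) and in 69.5% of the other eligible genes (68.7% to 70.2%), with median promoter values of 29.7 and 21.3. Hosts had longer 3′ UTRs, and these shares were not compared at equal length. The 3′ UTR interval usually had a lower value than the host promoter. It exceeded its own promoter in 222 of 969 cases (22.9%, 20.4% to 25.7%). For 129 hosts the promoter was under 5, and for 42 of these no promoter summit was listed.

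The intervals lay throughout the 3′ UTR and were sparse towards its end. Over 5 equal parts of the spliced 3′ UTR, from the coding end on, they numbered 199, 193, 218, 206 and 153. The last part held 15.8% of them (13.6% to 18.2%) and 20.4% of the eligible bases. The median summit lay 1201 bp past the coding end and 1240 bp before the transcript end. In 415 cases (42.8%) the whole interval lay between these ends. It ran over the coding end in 432 cases (44.6%), over the transcript end in 295 (30.4%) and over both in 173 (17.9%).

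The rule kept summits, and not whole intervals, away from coding promoters alone. Of the 969 summits, 728 also lay over 3 kb from the TSS of any transcript. The median distance to a protein-coding TSS was 12663 bp, and to the TSS of the host 29637 bp. The nearest coding TSS was that of the host for 507 intervals (52.3%). Summits 3 to 10 kb from a coding TSS made up 39.9% (36.9% to 43.1%), where 36.4% of the eligible bases lie, and those over 50000 bp away 8.88% (7.24% to 10.8%), where 14.2% lie. Another coding gene spanned the summit in 93 cases (9.60%), and a gene of any kind on the opposite strand did so in 196 (20.2%). ATAC-seq carries no strand, so the signal cannot be given to either gene.

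**Figure D3:**
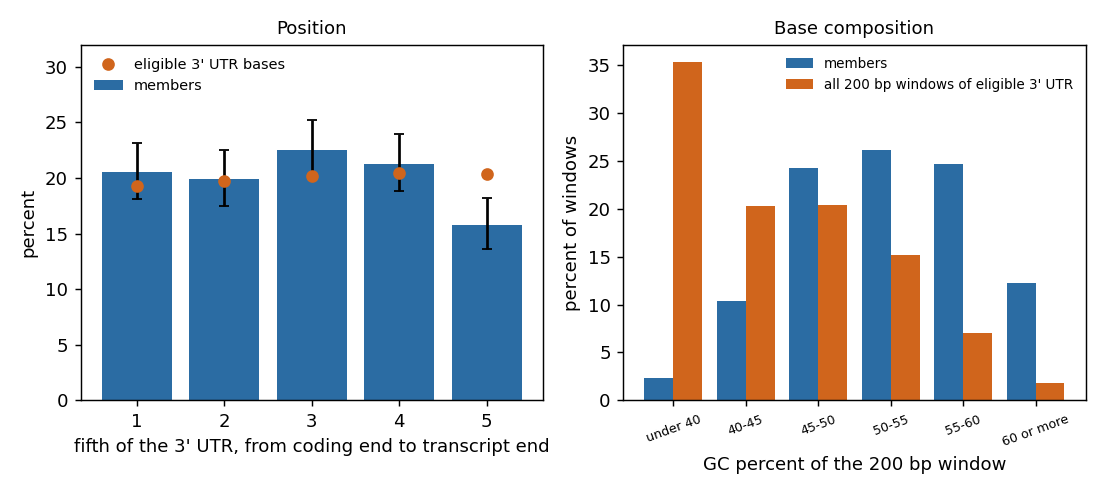
Left, percent of accessible 3′ UTR intervals in each of 5 equal parts of the spliced 3′ UTR (bars, Wilson 95% intervals) and percent of eligible 3′ UTR bases there (points). Right, percent of 200 bp windows in each class of GC content for the intervals and for all windows of eligible 3′ UTR. The last of these holds 15.8% of the intervals and 20.4% of the bases, and windows under 40% GC make up 2.37% of the intervals and 35.3% of all windows.

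A minority of summits lay near the start of a noncoding gene. Of the 969 intervals, 57 (5.88%, 4.57% to 7.55%) had the TSS of a noncoding gene within 1 kb, in 45 cases a lncRNA gene and in 41 cases one transcribed against the host. By comparison, 3.12% of eligible 3′ UTR bases lie that near to such a TSS, and so did 3.52% (3.04% to 4.08%) of the weaker 3′ UTR intervals. The share was 3.86% (2.59% to 5.72%) at fold enrichments of 5 to 10, 7.61% (5.03% to 11.3%) at 10 to 20 and 13.4% (8.00% to 21.6%) at 20 or more. It was 7.65% in coding-exon intervals, 4.798% in intron intervals and 18.02% outside coding genes. The noncoding annotation is large, and nearness to a TSS is no measure of transcription.

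The 5 highest of these each faced a lncRNA gene on the opposite strand. Dnajb12, a co-chaperone of the endoplasmic reticulum, had 62.5 at 111 bp from the TSS of Gm66121. Btbd19 had 48.6 at 74 bp from Gm57157. Its interval of 9736 bp also ran over the TSS of Btbd19 itself, 5077 bp from the summit. Lrrc75a had 39.7 at 78 bp from 2410006H16Rik. Xpo7, a nuclear transport receptor, had 30.8 at 5 bp from the TSS of Gm56755, in a 3′ UTR of 11758 bases. Ckm, the creatine kinase of muscle, had 29.003 at 33 bp from A930016O22Rik, and its own promoter had 1.96. The sequence at the first pair of these summits follows, with the summit base in capitals, on the strand of the host.
Dnajb12, chr10:59735604-59735633, plus strand: cccgggagctcattgGctgtccccgagcag
Btbd19, chr4:116977809-116977838, minus strand: ccagcaagctcagcCgccggatacgggaag

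The DNA under the summits was richer in G and C than the 3′ UTR at large. The median GC content of the 200 bp windows was 52.0% (51.5% to 53.0%), against 43.5% over all 127657 windows of eligible 3′ UTR. It was also 52.0% in the weaker 3′ UTR intervals, 57.0% in coding-exon intervals and 50.0% in intron intervals. The share of 3′ UTR windows that held the highest summit of an accessible 3′ UTR interval went from 0.0887% under 40% GC to 4.20% at 60% GC or more. Tn5 insertion and PCR are known to favour some base compositions, and their part in this was not tested. CpG-rich windows (at least 55% GC and a CpG ratio of observed to expected of at least 0.65) were 3.20% (2.26% to 4.51%) of the intervals and 0.216% of all 3′ UTR windows. Such windows were 17.6% of coding-exon intervals, 2.90% of those outside coding genes, 0.702% of intron intervals and 0.563% of weaker 3′ UTR intervals. They were 17.5% (9.82% to 29.4%) of the 57 intervals near a noncoding TSS and 2.303% (1.51% to 3.49%) of the rest.

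Of the 10 patterns, the CTCF core and the AP-1 site matched the most windows. The patterns differ in their number of fixed letters, so shares compare between sets of windows and not between motifs. The CTCF core was present in 139 of 969 windows (14.3%, 12.3% to 16.7%), against 1.19% of all 3′ UTR windows and 3.21% (2.75% to 3.75%) of the weaker 3′ UTR intervals. Its share was 9.23% (7.44% to 11.4%) in coding-exon intervals, 8.00% (7.64% to 8.36%) in intron intervals and 9.87% (9.51% to 10.2%) outside coding genes. Ripor1, with 31.6, and Slc4a3, an anion exchanger with 29.9, had the highest fold enrichments with this core. The centre of the match lay a median of 14.5 bp from the summit, and within 50 bp in 126 of 139 windows (90.6%). The core pointed along the host gene in 62 windows and against it in 77.

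The share was also read within classes of GC content and of fold enrichment. In windows of 45% to 50% GC the core was in 16.2% (12.01% to 21.4%) of the intervals and 1.41% of all windows, and at 55% to 60% GC in 15.1% (11.1% to 20.1%) and 2.37%. By fold enrichment, the share was 13.8% (10.5% to 17.97%) from 5 to 7, 18.1% (14.0% to 23.2%) from 7 to 10, 14.5% (10.8% to 19.1%) from 10 to 20 and 5.16% (2.22% to 11.5%) at 20 or more. The 97 intervals with the highest values held the core in 5 cases and the AP-1 site in 18 (18.6%, 12.1% to 27.4%). From the lowest class up, the AP-1 share was 14.7% (11.3% to 19.0%), 11.5% (8.21% to 15.8%) and 12.3% (8.95% to 16.7%). These intervals overlap that of the highest class. A match is a string of letters, and binding of CTCF was not measured.

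The AP-1 site was in 131 windows (13.5%, 11.5% to 15.8%), against 5.66% of all 3′ UTR windows. In 400 bp windows its share was 18.4%, with no comparison windows of that length. In 200 bp windows the AP-1 site was in 20.4% (19.8% to 20.9%) of intron intervals, a share above that of the 3′ UTR intervals. It was in 10.7% (8.76% to 13.0%) of coding-exon intervals, where the intervals of both shares overlap. The match lay a median of 35.0 bp from the summit. Jmjd4, Znrf1 and Extl1, described above, held it besides Cx3cl1 and H6pd. The TEAD site was in 54 windows (5.57%, 4.296% to 7.20%), against 3.00% of all 3′ UTR windows and 6.28% of intron intervals. Nhlrc2 at 34.2 and Lgi2 at 34.0 led these.

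The sites of the tubule factors, whose patterns have more fixed letters than that of AP-1, were in few windows. HNF1 was in 14 windows (1.44%, 0.863% to 2.41%), against 0.194% of all 3′ UTR windows and 2.14% of intron intervals. The highest were Tfcp2l1, itself a transcription factor of the collecting duct, at 24.6, and Cfap20dc at 22.5. HNF4 was in 13 windows (1.34%, 0.786% to 2.28%), against 0.306% of all 3′ UTR windows and 1.74% of intron intervals, with Vps13d at 20.6 and Tmem255b at 20.1. The ERR site TCAAGGTCA was in 5 windows (0.516%) and 0.414% of all 3′ UTR windows. The GC-rich box of KLF and SP factors, GGGGCGGGG, was in 17 (1.75%) and 0.483%, and Lrrc75a and Unc13a held it. The sites of NF1 (TTGGC and GCCAA with 5 free bases between them), ETS (ACCGGAAGT) and CREB (TGACGTCA) were in 1, 1 and 2 windows, held by Rab43, by Zscan22 and by Apba2 and Tmem151b. These sites were in 0.0118%, 0.0462% and 0.134% of all 3′ UTR windows, and none of the 10 sites contains another. At least 1 of the 10 sites was found, on either strand, in 352 windows (36.3%) and in 11.1% of all 3′ UTR windows.

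The polyadenylation signal AATAAA, read on the strand of the host, was in 53 windows (5.47%, 4.21% to 7.08%) and in 15.9% of all 3′ UTR windows. It is poor in G and C, and the intervals were sparse in the last part of the 3′ UTR and at low GC, as given above. The part of each in the share was not tested.

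**Figure D4:**
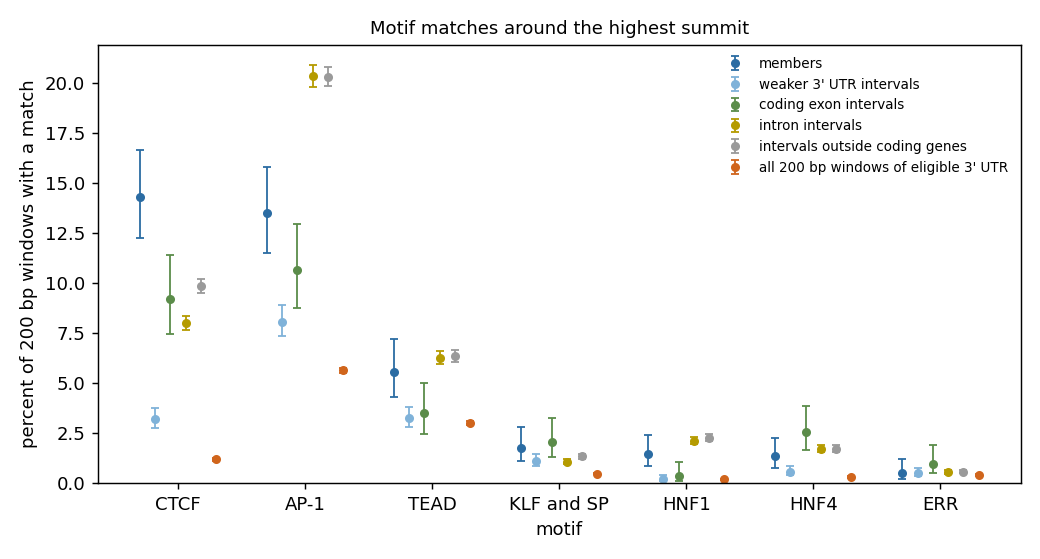
Percent of 200 bp windows around the highest summit that hold each motif on either strand, with Wilson 95% intervals, for the accessible 3′ UTR intervals, weaker 3′ UTR intervals, intervals elsewhere at the same distance and fold enrichment, and all windows of eligible 3′ UTR. The CTCF core is in 14.3% of the accessible 3′ UTR intervals and 8.00% of intron intervals, and the AP-1 site in 13.5% and 20.4%.

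The hosts were counted in each gene list. Over the lists of proximal tubule, thick ascending limb and distal tubule, collecting duct and podocyte markers, 12 of 96 eligible genes were hosts (12.5%, 7.30% to 20.6%), beside 5.89% of all eligible genes. These lists were pooled after the first values were seen. Taken singly, the interval spans 5.89% for proximal tubule (3.71% to 27.2%), collecting duct (4.34% to 31.0%) and podocyte genes (2.94% to 31.4%). It lies above 5.89% for the thick ascending limb and distal tubule list (6.40% to 34.65%). No allowance was made for the number of lists read or for their 3′ UTR lengths. In the proximal tubule list, 3 of 28 were hosts. Slc13a3, which carries dicarboxylates, had 11.8, and Acsm2, a medium-chain acyl-CoA synthetase, had 7.86 and 6.81 at separate summits. Slc22a8, an organic anion transporter, had 5.11, with no summit listed at its canonical TSS.

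Of the thick ascending limb and distal tubule list, 4 of 25 were hosts. The kinases Wnk1 and Oxsr1, which act in series to regulate sodium chloride cotransport, had 7.14 and 7.20. Cldn10, a claudin of the paracellular cation pathway, had 8.71, and Ppp1r1a, a phosphatase inhibitor, had 9.36 with a CTCF core in a 3′ UTR that overlaps the gene Pde1b. In the collecting duct list, 3 of 24 were hosts. Tfcp2l1 had 24.6 at 4736 bp past its coding end and 54261 bp from its TSS, with the snRNA gene Gm23497 starting 346 bp away. Nedd4l, the ubiquitin ligase of the epithelial sodium channel, had 5.70, and Atp6v1g3, a proton pump subunit of intercalated cells, had 5.17.

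Podocyte genes gave 2 of 19, the actin crosslinker Actn4 at 11.3 and the growth factor Vegfa at 5.24. Endothelial genes also gave 2, of 16, and these are the receptors of that growth factor, Flt1 at 19.2 and Kdr at 6.55. The endothelial share, 12.5% (3.50% to 36.0%), equals that of the pooled tubule and podocyte lists, and its interval spans 5.89%. Immune genes gave 1 of 14 (7.14%, 1.27% to 31.5%), Cd3e of the T-cell receptor complex at 6.48. Its own promoter had no summit listed, and the lncRNA gene Gm48719 starts 42 bp from the 3′ UTR summit. Stromal genes gave 0 of 16, with a Wilson upper bound of 19.4%. Counted as 3 genes, the limit that a count of 0 allows is 18.8%. Genes of other organs gave 3 of 19 (15.8%, 5.52% to 37.6%), a value above that of the tubule and podocyte lists with an interval that spans the 5.89% of all eligible genes. They were Ckm at 29.003, the astrocyte gene Gfap at 6.02 and the neuronal gene Rbfox3 at 5.24. The Ckm and Rbfox3 summits also lay in coding sequence of another protein-coding transcript. The Gfap summit lay 3036 bp from the TSS of the coding gene Fam187a, the shortest such distance among the 969. None of Ckm, Gfap and Rbfox3 had a promoter of at least 5, so the 3′ UTR interval of a host can be present where its promoter has little signal or none listed.

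Genes of the pathways that the study followed were hosts in small numbers. In JAK-STAT signalling, 4 of 30 were hosts, namely the transcription factor Stat5b at 14.7, the receptor subunits Il6st at 7.86 and Il6ra at 6.35, and Socs7 at 5.04. Among 44 genes of extracellular matrix and fibrosis, 3 were hosts, among them Thbs1 and Smad3. Thbs1, the matrix glycoprotein thrombospondin, had 24.8, and Smad3, which carries the TGF-beta signal to the nucleus, had 8.05. These shares, 13.3% (5.31% to 29.7%) and 6.82% (2.35% to 18.2%), have intervals that span the 5.89% of all eligible genes.

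In acetyl-CoA and lipid metabolism, 4 of 34 genes were hosts (11.8%, 4.67% to 26.6%), and this interval too spans the share of all eligible genes. Hmgcs1, which builds HMG-CoA from acetyl-CoA for cholesterol synthesis, had 18.9, with an HNF1 site and a polyadenylation signal in a window of 35.0% GC, the lowest value among the 969. Its promoter had 118. Srebf1, the transcription factor of lipid synthesis, had 11.1 at 103 bp past the coding end. Elovl6 had 7.66 with a CTCF core.

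Kidney transcription factors gave 8 hosts of 51 (15.7%, 8.17% to 28.0%). Besides Tfcp2l1 they included Emx2 at 11.0, Nfib at 10.8, Nfix at 7.14, Tfap2b at 6.74 and Nr2f2 at 5.70. Nfib, which has a 3′ UTR of 6512 bases, had its summit 214121 bp from any coding TSS. Per Mb of eligible 3′ UTR, this list held 66.7 intervals and all eligible genes 35.1. Genes of other organs held the most, 170, followed by proximal tubule (107), thick ascending limb and distal tubule (97.0) and endothelial genes (96.2). Acetyl-CoA and lipid metabolism held 75.9 and collecting duct 70.8. Below 66.7 were the immune (52.8), JAK-STAT (52.1), podocyte (45.4), matrix and fibrosis (37.2) and stromal (0) lists.

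The Slc and Zfp gene families lay on opposite sides of all genes. Solute carriers (symbols that start with Slc) were hosts in 36 of 327 cases (11.0%, 8.06% to 14.9%), with 59.5 intervals per Mb. Slc25a10, the mitochondrial dicarboxylate carrier, was the highest at 35.6, Slc4a3 followed at 29.9, and the glucose transporter Slc2a1 had 21.1. Zinc-finger genes whose symbols start with Zfp were hosts in 10 of 377 cases (2.65%, 1.45% to 4.81%), with 12.4 intervals per Mb. Their eligible 3′ UTRs had a median of 1697 bases and those of the solute carriers 1383. Zfp964 and Zfp988, both hosts, had further copies of their windows in the genome, as given above, and the part of such copies in the share of this family was not tested.

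**Figure D5:**
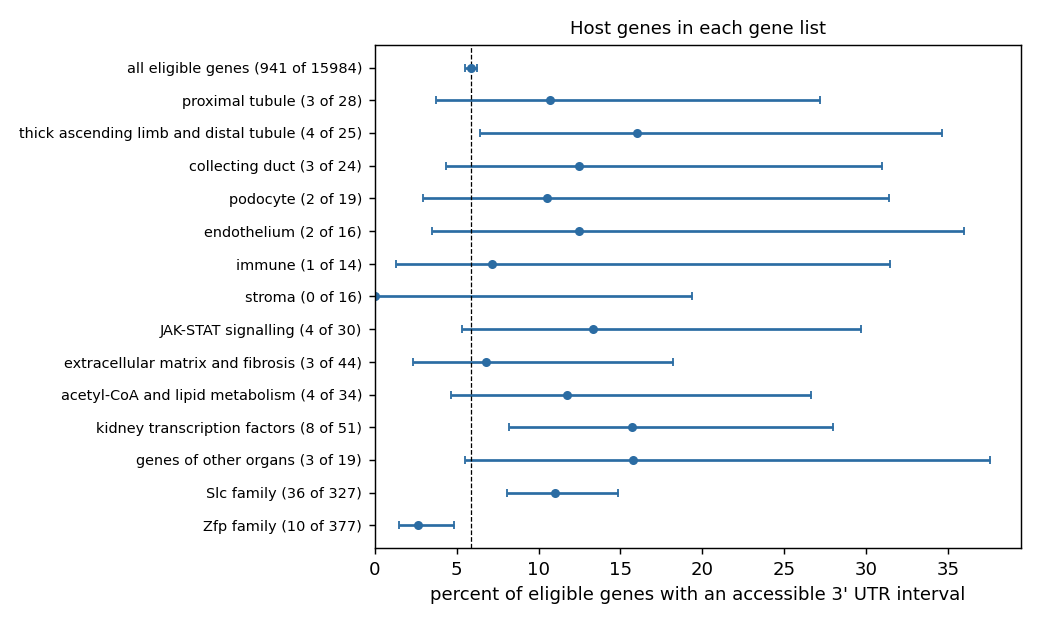
Percent of eligible genes in each list with an accessible 3′ UTR interval (points, Wilson 95% intervals, with hosts and eligible genes in brackets), and the percent over all eligible genes as a dashed line. The solute carriers, kidney transcription factors and the thick ascending limb and distal tubule list lie above the line with intervals that do not reach it, and the Zfp family lies below it at 2.65%. The intervals make no allowance for the number of lists or for 3′ UTR length.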

How the data were processed

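The labels describe 3 WT and 3 Acly cKO ATAC-seq libraries from kidney, and the pool behind the peak list may hold further WT libraries that the study counts. The authors aligned reads to mm39 (GRCm39), kept uniquely mapped reads without duplicates, and called peaks on the pool. The submitters' processing notes list Bowtie2 2.3.4.3, MACS3 3.0.0, bedtools 2.29.1 and deepTools 3.5.1. The deposited peak list gives, as the authors' caller wrote them, the fold enrichment (a linear ratio) and the -log10 q of each summit. It covers pooled libraries, so no replicate error or depth per library could be had. The deposited list of summits was not used.

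The 749750 summits were grouped into 279569 intervals by their coordinates, and the summit with the highest -log10 q stood for each. Intervals were placed on GENCODE M39. Comparison intervals met the same distance and fold enrichment, and all 3′ UTR windows are 127657 adjacent windows of 200 bp (129530 for the polyadenylation signal). Motifs were searched as fixed letters in the 200 bp around the summit. Copies were sought with blastn 2.17.0 (at least 90% identity over 150 bp), a step chosen after the data were seen. Other steps were likewise added after the first values were seen. They were the distance and direction of motif matches and the classes of GC content and fold enrichment for motifs. The counts of intervals above their own promoter, of hosts with a promoter under 5, and the pooled tubule and podocyte share were also among them. Shares carry Wilson and densities exact Poisson intervals at 95%, for counting error only, and no tests were made, since regions of 1 pool are not replicates.

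The members, the 12 gene lists and the motifs were chosen with earlier results of these data known. The genes named were the 15 highest intervals, the 3 highest per list, the 5 hosts with most intervals, those at the threshold, the 2 highest per motif and the 5 highest near a noncoding TSS. All other genes named, such as the remaining hosts of a list, the copies, and Slc25a10 and Slc2a1, were picked after their values were seen. Some hosts that this rule names are not reported here. Code was tested on simulated data. Python 3.11.15, pysam 0.24.0 and samtools 1.23.1 were used.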

Additional observations from a re-analysis of the deposited data

How the results depend on the processing

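The count of 969 depended on the fold enrichment asked for and on counting intervals or summits. A fold of at least 3 gave 1799 intervals, 66.5 per Mb and 10.4% of eligible genes, and at least 10 gave 373, 13.8 per Mb and 2.32%. Counting every summit gave 1930. Other rules on position or chromosome gave 728 to 1395. The density was 33.4 per Mb at 1 kb from a coding TSS and 33.1 at 3 kb from the TSS of any transcript. Of genes with at least 1000 eligible bases, 9.38% were hosts. The share near a noncoding TSS was 3.10% within 500 bp, 10.0% within 2 kb, 8.15% with noncoding transcripts of any gene and 9.12% when 10 was asked for. The median GC content was 54.0% in 100 bp, 50.0% in 400 bp and 54.5% when a fold of 10 was asked for. The cause of these shifts was not tested beyond the change that defines each. The median position in the 3′ UTR was 0.486 of its length and 0.505 and 0.511 under its alternatives. Of 20 motif shares in other windows, 13 stayed within the interval of the reported value, the CTCF share among them (12.5% in 100 bp and 15.4% in 400 bp). The 7 that did not were AP-1 (8.36% and 18.4%), TEAD (3.82% and 9.29%), KLF and SP (0.929% and 3.20%) and ETS at 100 bp (0%). No comparison windows of these lengths are given, so the shifts do not rank the motifs. Without the 36 intervals with further copies, an alternative chosen after the data were seen, 933 were left and all 16 values stayed as close.

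No paired analysis was possible because the pooled list has no column for a single library. The depth of the libraries is unknown, so weak or missing intervals cannot be read as closed chromatin.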
